A study of Mus musculus with 6 samples.

Results

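The subject is a set of 34 genes that move pigment-making enzymes and pigment granules in melanocytes, chosen by function from the named members of the BLOC, AP-3 and HOPS complexes, the actin transport machinery and related coat colour genes. The gene symbols were matched to the deposited count tables, which list 54838 genes, and all 34 were found once and carried enough reads to be tested. RNA was sequenced from B16F10 cells, a pigmented mouse melanoma line, in 3 samples treated with GSK126 at 10 µM and 3 samples given DMSO, the solvent control. GSK126 inhibits EZH2, the methyltransferase of Polycomb repressive complex 2, and the labels give no duration of treatment. All samples come from 1 cell line. Whether replicates were grown as separate cultures is not given in the labels. The p-values therefore rest on the variation among these 6 samples, part of which may be technical.

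Melanosomes are lysosome-related organelles that bud from endosomes and take up tyrosinase and related enzymes on the way to becoming pigment granules. BLOC-1, BLOC-2 and the adaptor AP-3 sort those enzymes into carriers, BLOC-3 activates the small GTPases Rab32 and Rab38 that mark the carriers, and the HOPS tether helps endosomal and lysosomal membranes to fuse. Mature granules are then held on actin filaments at the cell edge by Rab27a, melanophilin and myosin Va. Loss of single genes of this machinery gives mice with diluted coats, and in humans the Hermansky-Pudlak, Griscelli and Chediak-Higashi syndromes.

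The libraries held 13594939 to 14713373 counts. All 10 melanocyte markers had reads, and they summed to 23882 to 25025 CPM (counts scaled to equal library totals) in the GSK126 libraries and 22300 to 23729 CPM in the DMSO libraries. Of 6 keratinocyte markers, 5 had 0 reads in every library, and Krt14 had 0 reads with GSK126 and at most 2 reads a library with DMSO. Fibroblast markers summed to 17.001 to 22.53 CPM with GSK126 and 23.17 to 26.25 CPM with DMSO, mostly from Col1a2. Macrophage markers summed to 3.26 to 4.44 CPM with GSK126 and 2.13 to 3.41 CPM with DMSO, with Adgre1 and Itgam at 0. Endothelial markers summed to 5.69 to 7.44 CPM with GSK126 and 3.24 to 3.46 CPM with DMSO, mostly from Vwf, with Cdh5, Kdr, Tek and Emcn at 0. The part of these cell types in the results was not tested. GSK126 replicate 3 stood apart from the other GSK126 libraries along principal component 2, which held 18.7% of the variance, and values without it are given beside the genes that it moved most.

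Of the 34 genes, 4 rose with GSK126 (Myo5a, Lyst, Vps41 and Rab27a), 1 fell (Rab32) and 29 did not pass the test (quasi-likelihood test of edgeR, with p adjusted over 13601 genes by the Benjamini-Hochberg method and a threshold of 0.05). That is 11.8% of the genes rising and 2.94% falling, against 5.87% and 5.18% of all tested genes. At an unadjusted p below 0.05 there were 13 of the 34, against 27.5% of all tested genes. The changes were small. The log2 fold changes ran from -0.47 to 0.57, with a median of 0.09 for the 34 genes and -0.0005 for all tested genes. Their median absolute value was 0.14, against 0.16 for all tested genes. Of the 34 genes, 22 (64.7%) had a log2 fold change above 0, against 49.9% of all tested genes. The groups did not overlap for 16 of the 34 genes, 13 of them higher and 3 lower with GSK126, which is 47.1% of the set against 34.4% of all tested genes (17.6% higher and 16.8% lower). In these bulk samples a change in the number of cells of one type cannot be told apart from a change in RNA per cell.

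**Figure D1:**
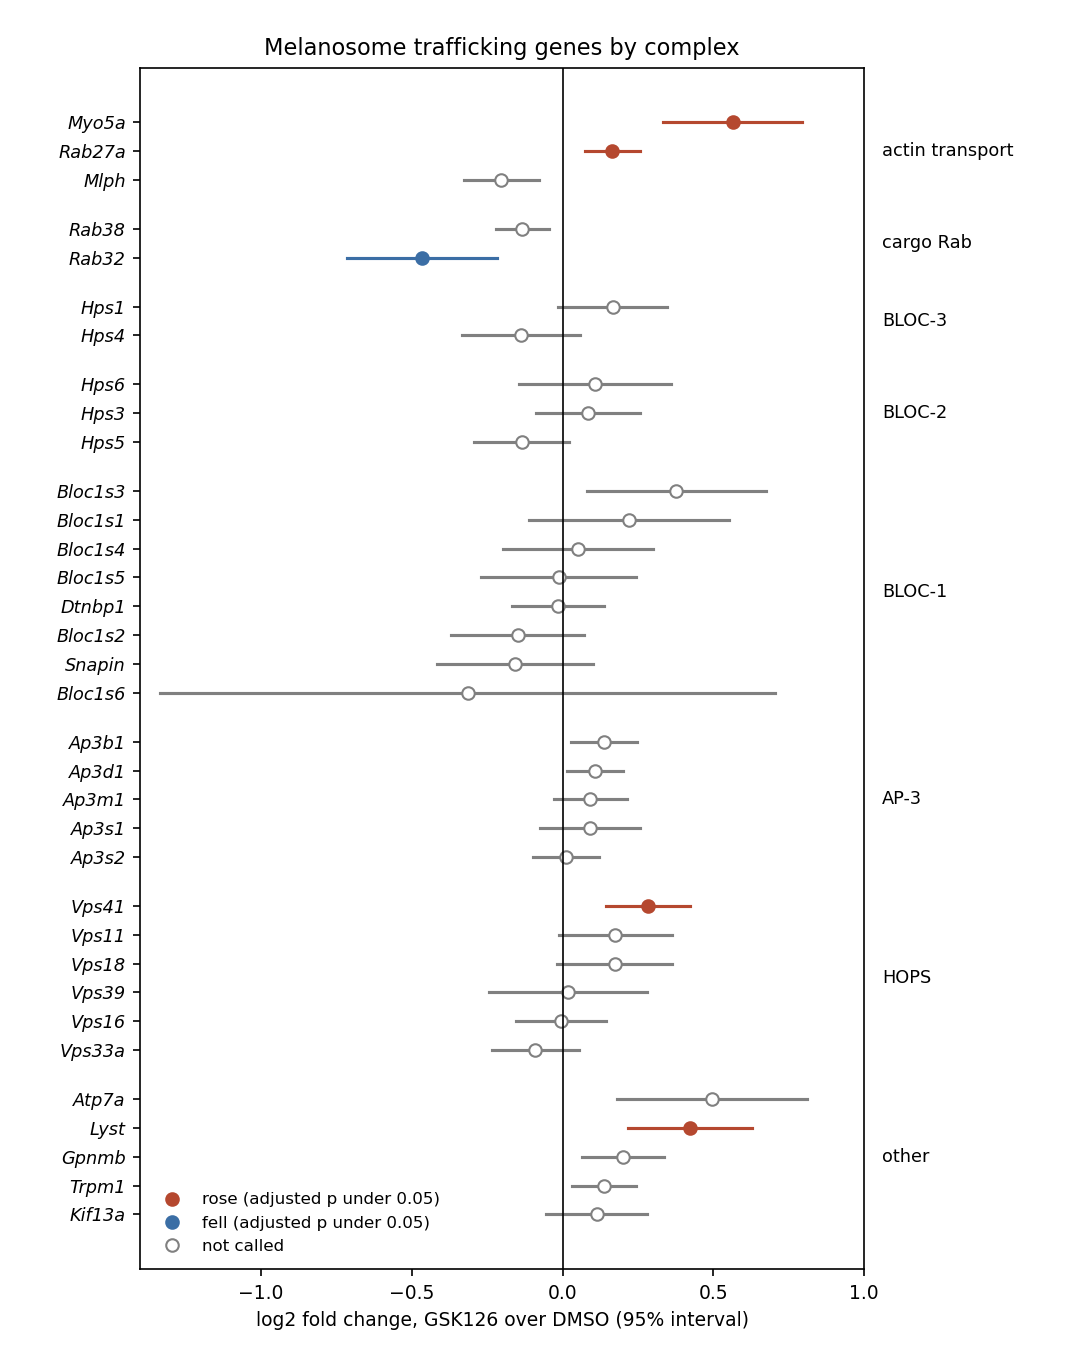
Log2 fold change of each of the 34 genes, GSK126 over DMSO (x axis), grouped by complex, with the 95% interval of the edgeR fit as a bar (n = 3 each). Filled points passed the test, red higher and blue lower with GSK126, and the interval of Bloc1s6 is the widest of the 34.

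In the actin tether, the genes for the motor and for its GTPase rose while the gene for the linker between them did not. Myo5a, at chromosome 9, 75071015 to 75223688 (GRCm38), encodes myosin Va, the motor missing in dilute mice. It had 629.9, 639 and 799.6 CPM, here and below with TMM-scaled library sizes, in GSK126 replicates 1 to 3, against 487, 479 and 432 CPM in DMSO replicates 1 to 3. Every GSK126 library lay above every DMSO library, with GSK126 replicate 3 the highest. The means were 689 ± 95.6 CPM with GSK126 and 466 ± 30.0 CPM with DMSO (SD, n = 3 each), a 1.48-fold rise (log2 fold change 0.57, SE 0.10, edgeR adjusted p = 0.0145).

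Rab27a, at chromosome 9, 73044854 to 73097629 (GRCm38), encodes the GTPase on the granule surface that is missing in ashen mice. It had 456, 442 and 467 CPM with GSK126, against 413, 402 and 402 CPM with DMSO. The groups did not overlap, but the rise was only 1.12-fold (log2 fold change 0.17, SE 0.04, edgeR adjusted p = 0.0384). Mlph encodes melanophilin, which binds Rab27a on one side and myosin Va on the other and is missing in leaden mice. It had 294, 307 and 328 CPM with GSK126, against 366, 361 and 342 CPM with DMSO. All GSK126 libraries lay below all DMSO libraries, and the difference did not pass the test (log2 fold change -0.20, SE 0.05, edgeR adjusted p = 0.0534). It passed without GSK126 replicate 3 (log2 fold change -0.25, adjusted p = 0.0263).

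In fits with 1 library left out, which called 529 to 1243 genes against 1503 with all libraries, the calls of this group did not all hold. That of Myo5a ended without DMSO replicate 1, 2 or 3, at adjusted p values of 0.0509, 0.0526 and 0.0536, and held without each GSK126 library. Without GSK126 replicate 3 the log2 fold change of Myo5a was 0.44 (adjusted p = 0.00859). The call of Rab27a ended with any 1 of the 6 libraries left out, at adjusted p values from 0.0538 without GSK126 replicate 3 to 0.134 without DMSO replicate 2, and also with DESeq2 (0.0737), while its log2 fold change stayed between 0.15 and 0.18.

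**Figure D2:**
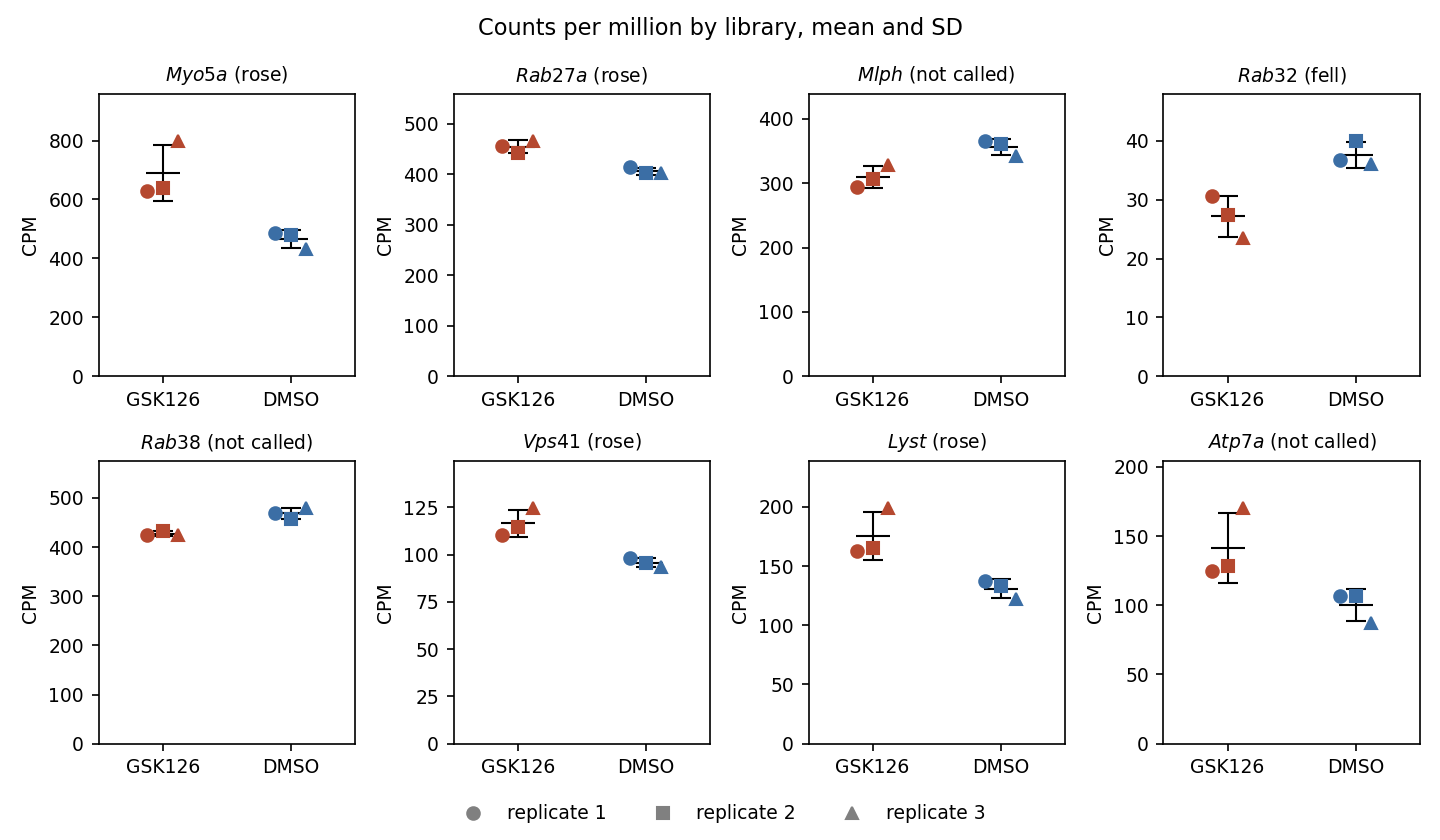
CPM in each library (y axis, from 0) for 8 genes, with GSK126 in red to the left of DMSO in blue, marker shapes for replicate numbers, and the mean and SD in black. The groups do not overlap in any of the 8 panels. GSK126 replicate 3 is the highest library for Myo5a, Rab27a, Lyst, Vps41 and Atp7a and the lowest for Rab32.

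The genes for the GTPases that mark cargo carriers were both lower with GSK126, and 1 of them passed the test. Rab32, at chromosome 10, 10545002 to 10558265 (GRCm38), had 30.6, 27.5 and 23.6 CPM with GSK126, against 36.75, 40.05 and 36.0 CPM with DMSO. The groups did not overlap, and the means were 27.2 ± 3.51 CPM with GSK126 and 37.6 ± 2.15 CPM with DMSO (SD, n = 3 each; log2 fold change -0.47, SE 0.11, edgeR adjusted p = 0.0344). The call was lost with GSK126 replicate 2 or 3 or any DMSO library left out, at adjusted p values from 0.0508 to 0.113, and the log2 fold change was -0.37 without GSK126 replicate 3. Rab38, the gene mutated in chocolate mice, had 424, 433 and 424 CPM with GSK126, against 470.1, 457 and 479 CPM with DMSO. Here too the groups did not overlap, but the difference was smaller and did not pass (log2 fold change -0.13, SE 0.04, edgeR adjusted p = 0.0638). Per length, Rab38 was far the more abundant of the pair, at 198 FPKM with GSK126 and 217 FPKM with DMSO, against 9.28 FPKM and 12.8 FPKM for Rab32 (mean deposited FPKM, n = 3 each).

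Regulators of these GTPases were measured with them. BLOC-3 is the exchange factor that loads Rab32 and Rab38 with GTP, and its subunits are Hps1, missing in pale ear mice, and Hps4, missing in light ear mice. Neither passed the edgeR test, and 0 of the 2 had an unadjusted p below 0.05 or was called by DESeq2 or limma-voom. Hps1 had 32.4, 33.4 and 33.5 CPM with GSK126, against 27.2, 29.8 and 31.6 CPM with DMSO, and the groups did not overlap (log2 fold change 0.17, SE 0.08). Hps4 had 33.2, 37.3 and 36.0 CPM with GSK126, against 41.7, 35.8 and 39.7 CPM with DMSO, and the groups overlapped (log2 fold change -0.14, SE 0.08). Outside the 34 genes, Ankrd27, which encodes VARP, an effector that binds both GTPases, fell to 67.1, 65.1 and 64.7 CPM with GSK126, against 84.5, 86.1 and 77.2 CPM with DMSO (log2 fold change -0.33, SE 0.06, edgeR adjusted p = 0.0169). That call was lost with GSK126 replicate 1 or 2 or DMSO replicate 1 or 2 left out, at adjusted p values from 0.0510 to 0.0710. Sgsm2, which encodes a GTPase-activating protein for Rab32, was at 87.6, 86.1 and 88.5 CPM with GSK126 and 97.1, 95.04 and 96.5 CPM with DMSO and did not pass (log2 fold change -0.14, SE 0.04, edgeR adjusted p = 0.0923).

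No subunit of BLOC-2 passed the edgeR test, with 0 of 3 below an unadjusted p of 0.05 and 0 called by DESeq2 or limma-voom. Hps5, missing in ruby-eye 2 mice, had 69.7, 65.4 and 70.1 CPM with GSK126, against 69.6, 76.5 and 79.2 CPM with DMSO. Its log2 fold change of -0.14 had a 95% interval from -0.29 to 0.02. The cocoa gene Hps3 and the ruby-eye gene Hps6 had log2 fold changes of 0.09 (SE 0.07) and 0.11 (SE 0.11), and the groups overlapped for all 3 subunits. These values moved with single libraries, to 0.02 for Hps3 without GSK126 replicate 3 and to 0.04 for Hps6 without DMSO replicate 1. Hps3 shares 108 bp of exons with Cp on the other strand, and the summed counts of both genes gave -0.18 (adjusted p = 0.0576), the other sign from Hps3 alone. Cp itself fell (log2 fold change -0.46, SE 0.08, edgeR adjusted p = 0.0128), with reads at 93.0% of those of Hps3. The sum therefore includes the change of Cp and cannot show whether reads of Hps3 were misassigned.

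BLOC-1 has 8 subunits, and 0 of them passed the edgeR test, with 1 (Bloc1s3) below an unadjusted p of 0.05 and 0 called by DESeq2 or limma-voom. Bloc1s3, missing in reduced pigmentation mice, had 15.01, 12.4 and 11.7 CPM with GSK126, against 10.4, 9.11 and 10.7 CPM with DMSO. It was the only subunit whose groups did not overlap, and its log2 fold change was 0.38 (SE 0.13, edgeR adjusted p = 0.105). The pallid gene Bloc1s6 varied far more within than between groups. It had 17.6, 19.3 and 42.7 CPM with GSK126, against 16.7, 44.0 and 38.2 CPM with DMSO. Both groups thus held libraries near the low and near the high level, and the 95% interval of its log2 fold change ran from -1.33 to 0.71 around -0.31. Without GSK126 replicate 3 the log2 fold change was -0.84 (SE 0.38, adjusted p = 0.226). The highest library exceeded the lowest 2.43-fold within GSK126 and 2.64-fold within DMSO, while no other of the 34 genes exceeded 1.48-fold in either group.

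The remaining BLOC-1 genes did not pass, and their groups overlapped. Dtnbp1, the dysbindin gene mutated in sandy mice, was the most precisely measured, with a log2 fold change of -0.01 and a 95% interval from -0.17 to 0.14. Bloc1s4 (cappuccino) stood at 0.05 (SE 0.11), Bloc1s5 (muted) at -0.01 (SE 0.11), Bloc1s2 at -0.15 (SE 0.09), Snapin at -0.16 (SE 0.11) and Bloc1s1 at 0.22 (SE 0.14) on the log2 fold change scale. Without GSK126 replicate 3, Bloc1s2 stood at -0.07 and Snapin at -0.08. The signs of Dtnbp1 and Bloc1s5 flipped when some libraries were left out. Bloc1s1 shares 720 bp of exons with Rdh5 on the same strand, and Snapin shares 354 bp with Ilf2 on the other strand whose reads came to 572% of those of Snapin, so part of their counts is uncertain.

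The AP-3 adaptor recognises tyrosinase and packs it into carriers. Its 5 subunit genes all had log2 fold changes above 0, from 0.01 to 0.14, and 0 passed the edgeR test, with 2 below an unadjusted p of 0.05 and 0 called by DESeq2 or limma-voom. Ap3b1, the pearl gene, had 171, 186 and 178 CPM with GSK126, against 163, 164 and 159 CPM with DMSO (log2 fold change 0.14, SE 0.05, edgeR adjusted p = 0.107). Ap3d1, the mocha gene, had 361, 373 and 367 CPM with GSK126, against 348, 330.4 and 344 CPM with DMSO (log2 fold change 0.11, SE 0.04, edgeR adjusted p = 0.129). In both genes, and in Ap3m1, the groups did not overlap, with all GSK126 libraries higher. Ap3m1, Ap3s1 and Ap3s2 stood at 0.09 (SE 0.05), 0.09 (SE 0.07) and 0.01 (SE 0.05), with signs that were not stable for Ap3s2. Ap3m1 shares 2090 bp of exons with Vcl on the other strand, and the summed counts of both gave -0.12 (adjusted p = 0.201). Vcl alone stood at -0.27 (SE 0.07, edgeR adjusted p = 0.0529), with reads at 141% of those of Ap3m1. That sum therefore includes the lower counts of Vcl and cannot show whether reads of Ap3m1 were misassigned. Ap3m2, the gene of the neuronal medium subunit and not one of the 34, rose slightly, to 31.9, 29.6 and 28.9 CPM with GSK126, against 25.2, 22.7 and 24.1 CPM with DMSO (log2 fold change 0.33, SE 0.08, edgeR adjusted p = 0.0400). The Ap3m2 call ended with any 1 of the 6 libraries left out (adjusted p of 0.0524 to 0.128) and with DESeq2 (0.0564).

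Of the 6 HOPS subunits, Vps41 rose and the other 5 did not pass. Vps41, at chromosome 13, 18717286 to 18866811 (GRCm38), encodes the subunit that binds AP-3 as well as the tether. It had 110.4, 115 and 125 CPM with GSK126, against 98.3, 95.5 and 93.4 CPM with DMSO. The groups did not overlap, and the means were 117 ± 7.32 CPM with GSK126 and 95.8 ± 2.46 CPM with DMSO (SD, n = 3 each; log2 fold change 0.28, SE 0.06, edgeR adjusted p = 0.0257). The call ended without GSK126 replicate 2 (adjusted p = 0.0658) and without DMSO replicate 1, 2 or 3 (0.0754, 0.0917 and 0.0886). It held without GSK126 replicate 3, with a log2 fold change of 0.23 (adjusted p = 0.0349).

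The other HOPS subunits share the tether with Vps41 and did not pass. Vps11 had 43.9, 41.1 and 41.6 CPM with GSK126, against 38.3, 39.9 and 33.9 CPM with DMSO, and Vps18 had nearly the same log2 fold change (0.17, SE 0.08, for each). Vps33a, the gene mutated in buff mice, stood at -0.09 (SE 0.06), and Vps16 at -0.0043 (SE 0.06). Vps39 had 91.2, 110.8 and 127 CPM with GSK126, against 106, 108 and 112 CPM with DMSO. Its GSK126 libraries lay on both sides of the DMSO libraries, and its log2 fold change of 0.02 turned to -0.10 without GSK126 replicate 3. Vps16 shares 109 bp of exons with Pced1a on the other strand, and their summed counts gave 0.03 (adjusted p = 0.776).

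The 5 other genes all had log2 fold changes above 0, and Lyst passed the test. Lyst, at chromosome 13, 13590397 to 13778803 (GRCm38), encodes a very large protein that limits the size of lysosomes and melanosomes and is missing in beige mice. It had 163, 165 and 199 CPM with GSK126, against 138, 133 and 122 CPM with DMSO, with no overlap. The means were 176 ± 20.2 CPM with GSK126 and 131 ± 7.72 CPM with DMSO (SD, n = 3 each; log2 fold change 0.42, SE 0.09, edgeR adjusted p = 0.0256). With DMSO replicate 1, 2 or 3 left out the call was lost, at adjusted p values of 0.0692, 0.0835 and 0.0853, and without GSK126 replicate 3 the log2 fold change was 0.32 (adjusted p = 0.0243).

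Atp7a encodes the copper pump, mutated in mottled mice, that loads tyrosinase with its metal. It had 125, 129 and 170.2 CPM with GSK126, against 107, 106 and 87.0 CPM with DMSO. The groups did not overlap, but their spread was wide, and of the 3 tools run only DESeq2 called the difference (edgeR log2 fold change 0.50, SE 0.14). Its adjusted p was 0.0594 with edgeR, 0.0649 with limma-voom and 0.00496 with DESeq2, and without GSK126 replicate 3 its edgeR log2 fold change was 0.34 (adjusted p = 0.078). Gpnmb, a melanosomal glycoprotein gene, had 4611.5, 5123 and 5119.5 CPM with GSK126, against 4062, 4385 and 4487 CPM with DMSO (log2 fold change 0.20, SE 0.06, edgeR adjusted p = 0.0708). Trpm1, the melastatin channel gene, had 732, 702 and 758 CPM with GSK126, against 688, 645 and 661 CPM with DMSO (log2 fold change 0.14, SE 0.05, edgeR adjusted p = 0.1003). For both the groups did not overlap. Kif13a, the kinesin gene for endosome carriers, had overlapping groups and a log2 fold change of 0.11 (SE 0.07), or 0.05 without GSK126 replicate 3.

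**Figure D3:**
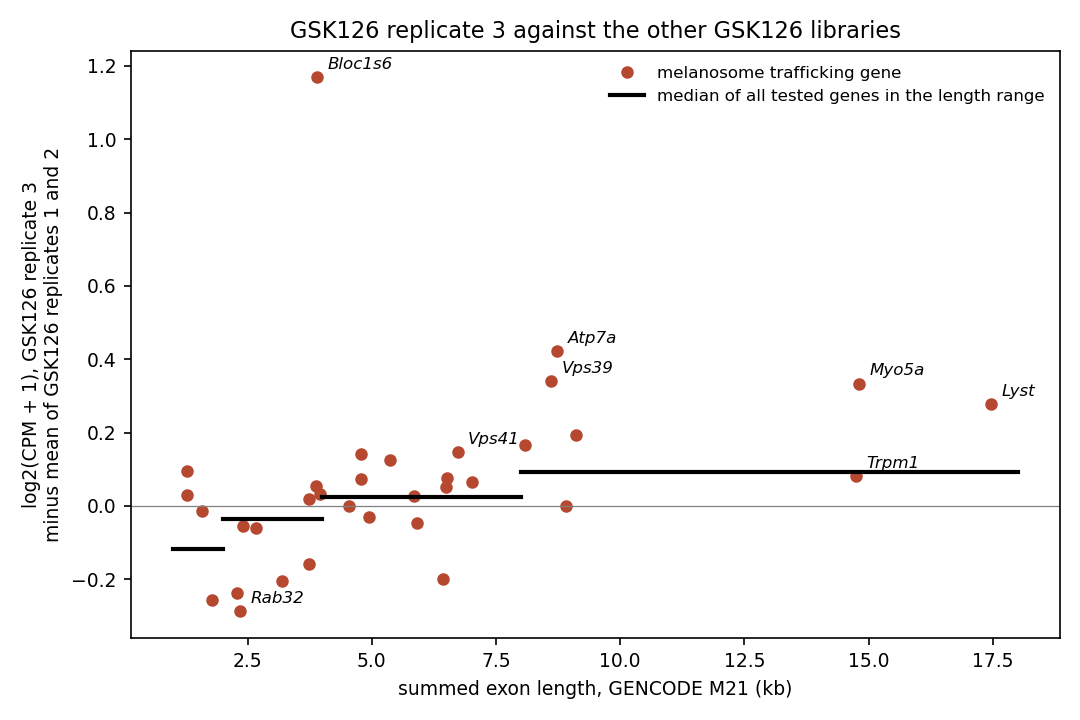
Deviation of GSK126 replicate 3 from the mean of GSK126 replicates 1 and 2 on the log2(CPM + 1) scale (y axis) against summed exon length in kilobases (x axis), with 1 point per gene of the set and black bars for the median of all tested genes in each length range. The long transcripts Myo5a, Lyst and Atp7a lie above the bar of their range, and Rab32 lies below that of its own.

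Myo5a and Lyst are long, and transcript length moved with the library that stood apart. The summed exon lengths are 14803 bp for Myo5a, 17459 bp for Lyst and 8734 bp for Atp7a, but 2339 bp for Rab32. Over the 2222 tested genes with at least 8000 bp of exons, GSK126 replicate 3 deviated from the other GSK126 libraries by a median of 0.09 on the log2 scale, and over the 2746 genes below 2000 bp by -0.12. The median log2 fold change was 0.05 for the long genes and -0.07 for the short ones, and 0.01 and -0.02 without GSK126 replicate 3. Myo5a, Lyst and Rab32 deviated by 0.33, 0.28 and -0.29 in that library. Among the long genes 8.24% rose and 4.32% fell. Myo5a and Lyst were still called without GSK126 replicate 3, as given above, while the part of transcript length in the results was not tested. Trpm1, with 14746 bp of exons, deviated by 0.08.

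Levels per length ran from 3.35 to 619 FPKM among the 34 genes. By mean deposited FPKM over the 6 libraries, Gpnmb led with 619 FPKM, followed by Rab38 (207), Rab27a (56.1) and Mlph (55.4). On the deposited scale the order of the last pair differed between the groups. With GSK126, Rab27a had 57.7 to 60.6 FPKM and Mlph 49.2 to 54.4 FPKM, and with DMSO, Rab27a had 52.1 to 54.0 FPKM and Mlph 56.5 to 61.1 FPKM. Myo5a stood at 33.5 FPKM with GSK126 and 22.6 FPKM with DMSO, below both of its partners in each group. By the same mean over the 6 libraries, the most abundant subunits were Ap3d1 for AP-3 (32.7 FPKM), Bloc1s2 for BLOC-1 (33.8), Vps41 for HOPS (14.9), Hps5 for BLOC-2 (5.26) and Hps4 for BLOC-3 (4.70). Some of these ranks held in 1 group only. Hps6 (5.12 FPKM) stood above Hps5 (5.02) with GSK126, and Vps33a (13.6 FPKM) above Vps41 (13.4) with DMSO. Hps1 had the lowest mean over the 6 libraries, at 3.35 FPKM, but with DMSO Bloc1s3 (3.14 FPKM) was as low as Hps1 (3.15). The BLOC-2 subunits had means between 4.48 and 5.26 FPKM, and those of BLOC-1 ran from 3.62 to 33.8 FPKM.

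**Figure D4:**
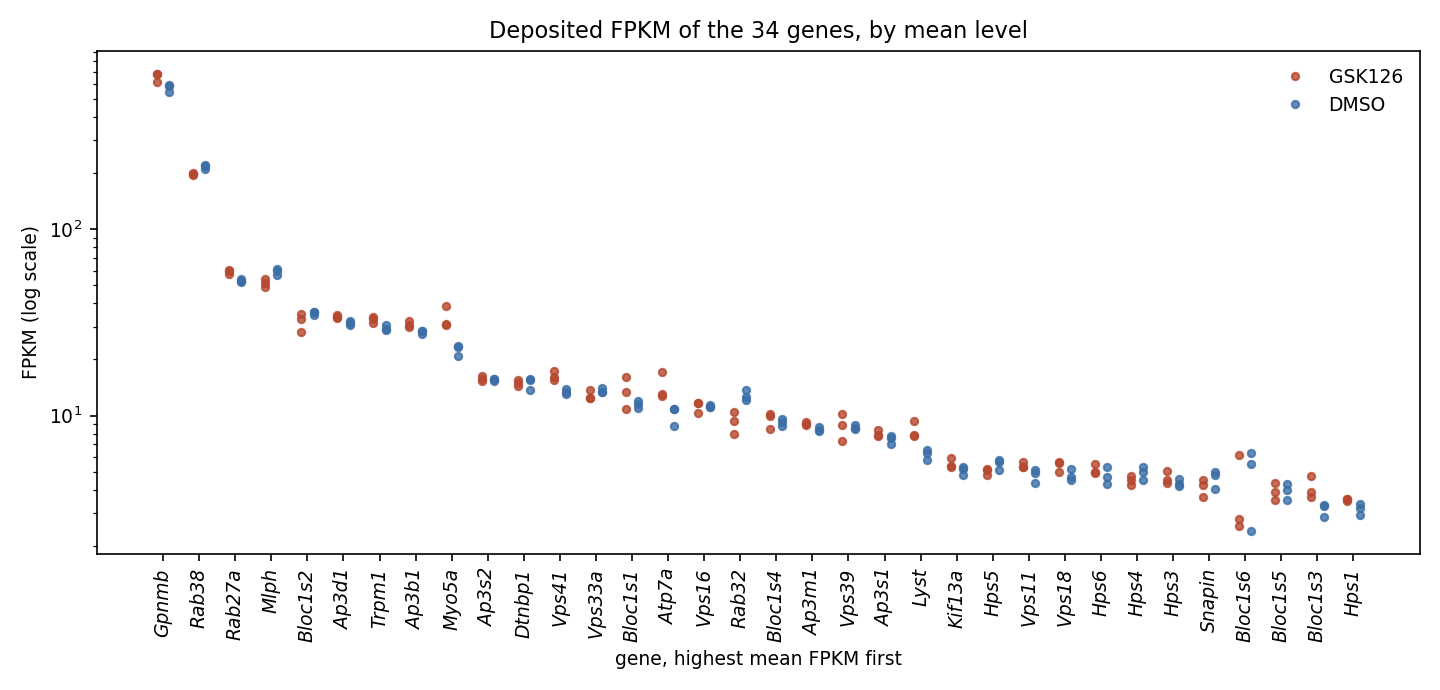
Deposited FPKM of the 34 genes in each library (y axis, log scale), ordered by mean level, with GSK126 in red to the left of DMSO in blue. Gpnmb and Rab38 stand above the rest, and Bloc1s6 shows the widest scatter within both groups.

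Beyond the 34 genes, a list of 65 partners of the machinery was read from the same fit (further Rab effectors and regulators, SNAREs, BORC, CORVET, AP-1, the PIKfyve complex and other endolysosomal coat colour genes). Of these, 58 had enough reads, 3 rose, 1 fell and 54 did not pass. That is 5.17% rising and 1.72% falling, against 5.87% and 5.18% of all tested genes. The median log2 fold change of the 58 was 0.07. The changed genes were Ankrd27 and Ap3m2, given above, Arl8b, which attaches lysosomes to kinesin (log2 fold change 0.19, SE 0.04, edgeR adjusted p = 0.0360), and Sytl4, a Rab27 effector at a low level (0.55, SE 0.14, edgeR adjusted p = 0.0474). The calls of Arl8b and Sytl4 each ended with any 1 of the 6 libraries left out (adjusted p of 0.0571 to 0.118 for Arl8b and 0.0980 to 0.144 for Sytl4). Sytl2, the abundant Rab27 effector, stood at 0.03 (SE 0.05), while Rab27b and the retinal linker gene Myrip were near 0 reads.

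Mitf, the transcription factor that switches on many pigment cell genes, was higher in every GSK126 library. It had 974.9, 957 and 1016 CPM with GSK126, against 679, 656 and 614 CPM with DMSO (log2 fold change 0.60, SE 0.05, edgeR adjusted p = 0.00101). Of the cargo enzymes that this machinery carries, Tyr (-0.0017, SE 0.07) and Tyrp1 (-0.08, SE 0.07) did not pass, while Dct rose by 0.15 (SE 0.04) and the matrix protein gene Pmel by 0.28 (SE 0.03) on the log2 scale. Mlana, which encodes a partner of the Pmel protein, fell to 877, 891 and 789 CPM with GSK126, against 1059, 1063 and 988 CPM with DMSO (log2 fold change -0.28, SE 0.06, edgeR adjusted p = 0.0245). Of the 10 melanocyte markers, 4 rose (Mitf, Pmel, Dct and Sox10), 1 fell (Mlana) and 5 did not pass. That is 40.0% rising and 10.0% falling, against 5.87% and 5.18% of all tested genes. Dct lay near the threshold (edgeR adjusted p = 0.0446), and limma-voom called 5 of the 10 markers and DESeq2 4.

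Mitf and its relatives bind the letters CACGTG and CATGTG, so the RefSeq windows from 250 bases before to 50 bases after a gene's start (GRCm38.p6) were searched on both strands for these and for the longer forms TCACGTGA and TCATGTG, which contain them. A window existed for 28 of the 34 genes, and 3 of the genes had 2 windows each. The form TCACGTGA was found in 6 of the 28 genes (21.4%), against 1.12% of the 27025 genes with a window. CACGTG was found in 11 (39.3%, against 8.09%), CATGTG in 5 (17.9%, against 15.9%) and TCATGTG in 3 (10.7%, against 4.31%). The 27025 genes include many with too few reads to be tested here, while all 28 were tested. Shares among the tested genes alone were not counted, so these contrasts are not between genes of like expression. The genes with TCACGTGA belong to BLOC-1, BLOC-2, HOPS and the copper pump. It begins at position -88 in Atp7a and between -29 and -4 from the start in the other 5, and Bloc1s1 and Vps33a hold it 2 times. They are shown with Mlph (CACGTG) and with the first start of Trpm1 (TCATGTG), each as 100 bases on the gene's strand with the searched letters in capitals.
Bloc1s1, chr10:128923521-128923620, minus strand: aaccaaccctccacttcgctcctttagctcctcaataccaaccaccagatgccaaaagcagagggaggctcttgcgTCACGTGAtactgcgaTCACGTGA
Bloc1s3, chr7:19508371-19508470, minus strand: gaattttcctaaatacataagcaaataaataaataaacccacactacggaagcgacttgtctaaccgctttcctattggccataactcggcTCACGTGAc
Hps3, chr3:20035311-20035410, minus strand: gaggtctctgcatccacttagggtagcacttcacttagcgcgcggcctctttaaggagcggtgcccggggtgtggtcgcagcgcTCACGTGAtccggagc
Vps16, chr2:130424220-130424319, plus strand: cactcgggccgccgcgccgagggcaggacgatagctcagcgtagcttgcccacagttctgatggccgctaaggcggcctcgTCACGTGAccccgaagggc
Vps33a, chr5:123573016-123573115, minus strand: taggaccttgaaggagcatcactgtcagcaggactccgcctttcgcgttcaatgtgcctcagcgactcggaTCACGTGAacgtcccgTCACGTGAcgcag
Atp7a, chrX:106027124-106027223, plus strand: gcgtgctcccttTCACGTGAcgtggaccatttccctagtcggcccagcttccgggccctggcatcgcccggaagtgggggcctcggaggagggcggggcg
Mlph, chr1:90915000-90915099, plus strand: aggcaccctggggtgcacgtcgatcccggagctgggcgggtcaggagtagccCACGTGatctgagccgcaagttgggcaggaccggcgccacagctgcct
Trpm1, chr7:64153635-64153734, plus strand: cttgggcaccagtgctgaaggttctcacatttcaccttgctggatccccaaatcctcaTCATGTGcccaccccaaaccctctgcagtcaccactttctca

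None of the 6 genes with TCACGTGA was among the 5 called genes (edgeR), and their log2 fold changes were 0.22 for Bloc1s1, 0.38 for Bloc1s3, 0.09 for Hps3, -0.0043 for Vps16, -0.09 for Vps33a and 0.50 for Atp7a. Of the called genes, Rab27a held CACGTG at position -246 of the window at its downstream start, and Vps41 held TCATGTG just after its start. Myo5a, Lyst and Rab32 had none of the 4 searched forms in their windows. A match describes letters only and is not a measured binding site.

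**Figure D5:**
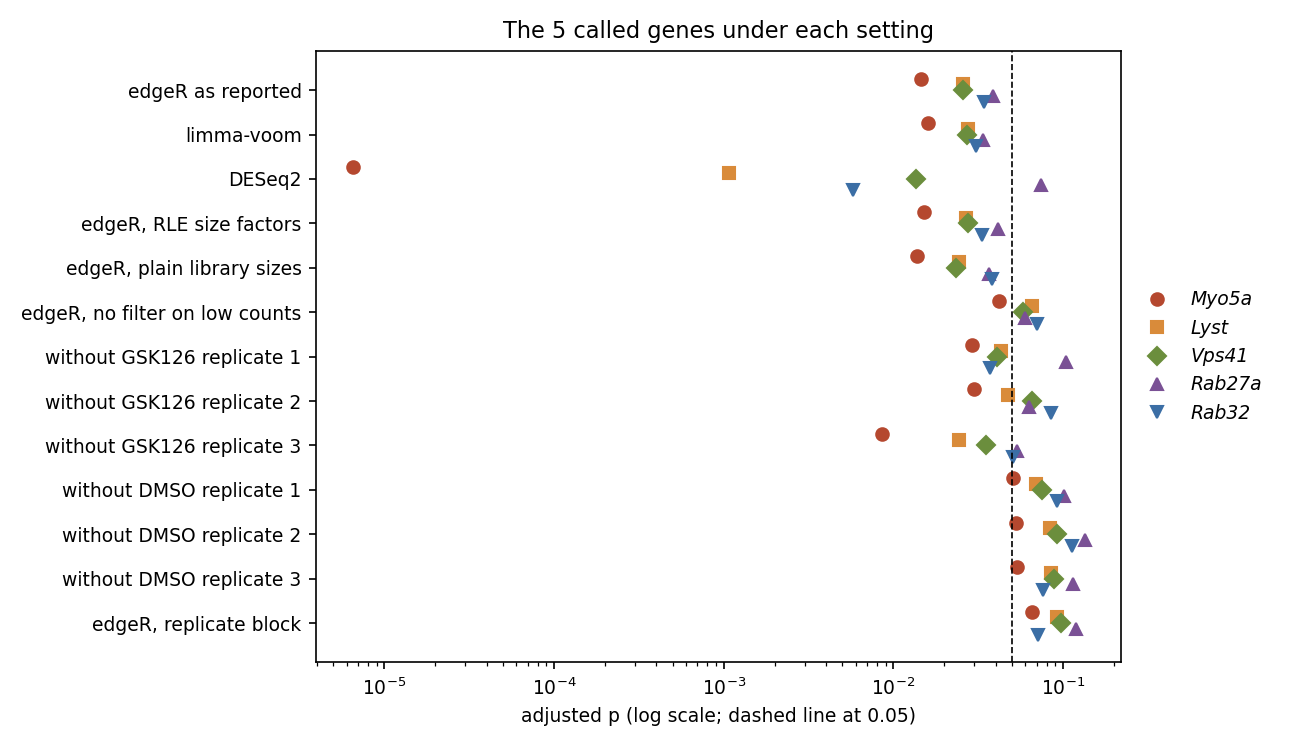
Adjusted p (x axis, log scale, dashed line at 0.05) of the 5 called genes under each setting of the analysis (rows), with 1 marker shape per gene. Under the other scalings and limma-voom all 5 stay left of the line, and without a DMSO library all 5 lie right of it.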

How the data were processed

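Per the file headers, the deposited tables hold whole-number read counts and FPKM values, 1 column of each per library. The submitters' processing notes name CASAVA 1.8, the aligner HISAT2 and the build GRCm38.p4 (mm10). How reads were assigned to genes, and whether strand was used, is not stated there, so reads of overlapping genes on opposite strands cannot be told apart. Within a gene the deposited FPKM and the counts differ by a constant factor (largest ratio 1.000082 over 12811 genes), so the FPKM are the same measurement on another scale and were used only for levels between genes.

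The count test was edgeR 4.0.16 in R 4.3.3 (filterByExpr, TMM, quasi-likelihood F test, group as the only term), which kept 13601 genes. P-values were adjusted over all of them by the Benjamini-Hochberg method (threshold 0.05). Standard errors were derived from the F statistic, and CPM uses TMM-scaled sizes (factors 0.994 to 1.007). Alternatives were DESeq2 1.42.0, limma-voom (limma 3.58.1), other scalings, no filter, each library left out, the replicate number as a block, and summed counts of genes sharing exons in GENCODE M21. A partner counted as sharing where it had at least 10% of the gene's reads. Replicates differed by more than counting noise (chi-square 7.52 to 14.17 times its degrees of freedom in the 6 pairs).

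The 34 genes, the list of partners and the searched letters were chosen with earlier results of these data known. By the rule for named genes, all 34 are accounted for. Values by library were given for called genes and for the uncalled gene of each complex with the largest change at 5 CPM or more. The most abundant gene of each complex was named with its mean FPKM, and the called partners with their log2 fold changes. Values by library of Hps4, Bloc1s6, Ap3d1, Vps39, Gpnmb, Trpm1 and the partners Ankrd27, Ap3m2 and Sgsm2 were added after they were seen, and Sytl2, Rab27b and Myrip were named after their values were seen. The values by library of the markers Mitf and Mlana also fall outside the rule, which names markers only to check the cell label.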

Additional observations from a re-analysis of the deposited data

How the results depend on the processing

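The 5 called genes kept their direction under every setting run for them, but most calls lie close to the threshold. Without a filter on low counts, 899 genes were called in all, with 1 of the 34 genes higher, 0 lower and 1 partner gene changed. With the replicate numbers as a block, 408 genes were called, with 0 of the 34 genes higher, 0 lower and 0 partners. Same-numbered samples did not deviate together (correlations of 0.0665, 0.021 and -0.042), and not every sample correlated best with its own number, so the numbers were not treated as pairs. DESeq2 called 1 partner, against 4 by edgeR. With 1 library left out, the calls over all genes ranged from 529 to 1243 against 1503 with all libraries, those of the 34 genes from 0 to 3 higher and from 0 to 1 lower, and those of the partners from 0 to 1. All 3 fits without a DMSO library called 0 of the 34 genes.

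Of 461 other values for single genes, 382 kept their direction and side of the threshold, 64 lost the call, 2 gained it and 13 changed sign, all in genes that were not called. Only genes called in the reported fit could lose a call, and most of the 461 values belong to genes that were not called. The 64 are therefore not a share of all 461, and the calls were less stable than that number implies. With 1 library left out, the log2 fold change ranged from -0.0912 to 0.0613 for Bloc1s5, from -0.0766 to 0.0225 for Dtnbp1, from -0.0104 to 0.0263 for Ap3s2, from -0.0323 to 0.0473 for Vps16 and from -0.1038 to 0.1343 for Vps39. With exon-sharing partners added, Hps3 was at -0.1753, Ap3m1 at -0.1167 and Vps16 at 0.0329. Each of these sums includes the partner's own change. The cause of the changes was not tested, beyond the smaller number of samples or the added reads. Depth limits the less abundant genes, such as Bloc1s3 with 128 to 215 reads a library.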

Other observations

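Among the partner genes, Rab7 and Rab11b also had low and high libraries in both groups, and were picked out after their values were seen. Rab7, the late endosome GTPase, had 525, 241 and 263 CPM in GSK126 replicates 1 to 3 and 238, 239 and 553 CPM in DMSO replicates 1 to 3. Rab11b, a recycling endosome GTPase, had 13.5, 41.5 and 26.7 CPM with GSK126 and 32.3, 11.4 and 34.7 CPM with DMSO. The libraries at the high level were not the same for Bloc1s6, Rab7 and Rab11b. Over the 10973 tested genes with at least 5 CPM on average, 100 (0.911%) had a highest library at least 2 times the lowest in both groups.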
